A study of Mus musculus with 4 samples.

Results

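The collagen chain genes are the 44 genes whose symbol has the form Col, a type number, the letter a and a chain number, among 19938 genes read by one-gene probe sets of the array. Membership follows from the symbol alone, but the set was chosen with earlier results of these data known. Of the 44 genes 42 were read by 1 probe set and 2 by more. For the latter the brighter one, by its mean on the 4 arrays, stands for the gene. By the way their products assemble, 11 are fibrillar, 9 network-forming, 6 beaded-filament and 9 FACIT chains (fibril-associated collagens with interrupted triple helices), and 9 belong to none of these classes. The genes were followed in fibroblasts cultured from mouse embryos (MEFs), which were either wild type or labelled as knockouts of NFAT5, also called TonEBP, a transcription factor of the response to hypertonic stress. Non-synchronised cells of each genotype spent 20 hours in isotonic medium or in medium brought to 450 mosmol/kg with NaCl; neither the osmolality of the isotonic medium nor the deleted part of the gene is given in the labels. Every combination has a single array, an Affymetrix Mouse Gene 1.0 ST, that took RNA of 4 pooled samples. Spread between replicates was thus not measured and no test was made, so every difference below describes these pools, on the log2 scale.

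Collagens are secreted proteins built of 3 chains wound into a triple helix, and fibroblasts are a main source of them. Chains of the fibrillar class form the cross-banded fibrils that give connective tissue its tensile strength. Network chains form sheets such as those of basement membranes, beaded chains form microfibrils that link cells to their surroundings, and FACIT chains sit on the surface of fibrils. Before secretion the chains are hydroxylated, glycosylated and folded in the endoplasmic reticulum, and outside the cell they are trimmed and cross-linked by lysyl oxidases.

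The arrays were alike in range, with Pearson correlations between pairs of arrays from 0.979 to 0.989 across probe sets. Nfat5 itself read 7.74 and 8.19 in isotonic and hypertonic wild-type cells and 8.03 and 8.24 in the knockout cells, no lower in the latter. Since the probes may lie outside the deleted part, this leaves the genotype unchecked, and the term knockout-labelled is used. Of 9 fibroblast markers, 8 read above the dim limit (each array's median over one-gene probe sets, between 5.38 and 5.44) on each of the 4 arrays, and Fap, a fibroblast surface protease, read below it on all 4. The mean signal of that list was 8.80, 9.08, 8.37 and 8.22 in the order of arrays above. For 5 smooth muscle markers it was 7.31, 7.56, 6.27 and 6.26, with Acta2 and Tagln above the limit on all 4 arrays and Cnn1 on the wild-type arrays. Of 7 epithelial markers, Krt18 and Krt19 read above the limit on all 4 arrays, Krt8 on 3 and Cdh1 on 2. Of 5 macrophage markers, Cd68 did so on 3. No osteoblast, endothelial, skeletal muscle or Schwann cell marker that was read did so on any array. In pools of cells, fewer cells of a type and less RNA per cell cannot be told apart, and the part of cell makeup in the results below was not tested.

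Of the 44 genes, 31 read above the dim limit on at least 1 array and 24 on all 4. The other 13 (Col4a3, Col4a4, Col4a6, Col6a4, Col6a5, Col9a1, Col14a1, Col17a1, Col19a1, Col20a1, Col24a1, Col25a1 and Col28a1) read between 3.87 and 5.32 throughout. A gene counted as measured in a comparison when it was above the limit on at least 1 of the arrays compared. Signals of different probe sets do not rank genes by abundance, so levels are compared only between arrays.

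**Figure D1:**
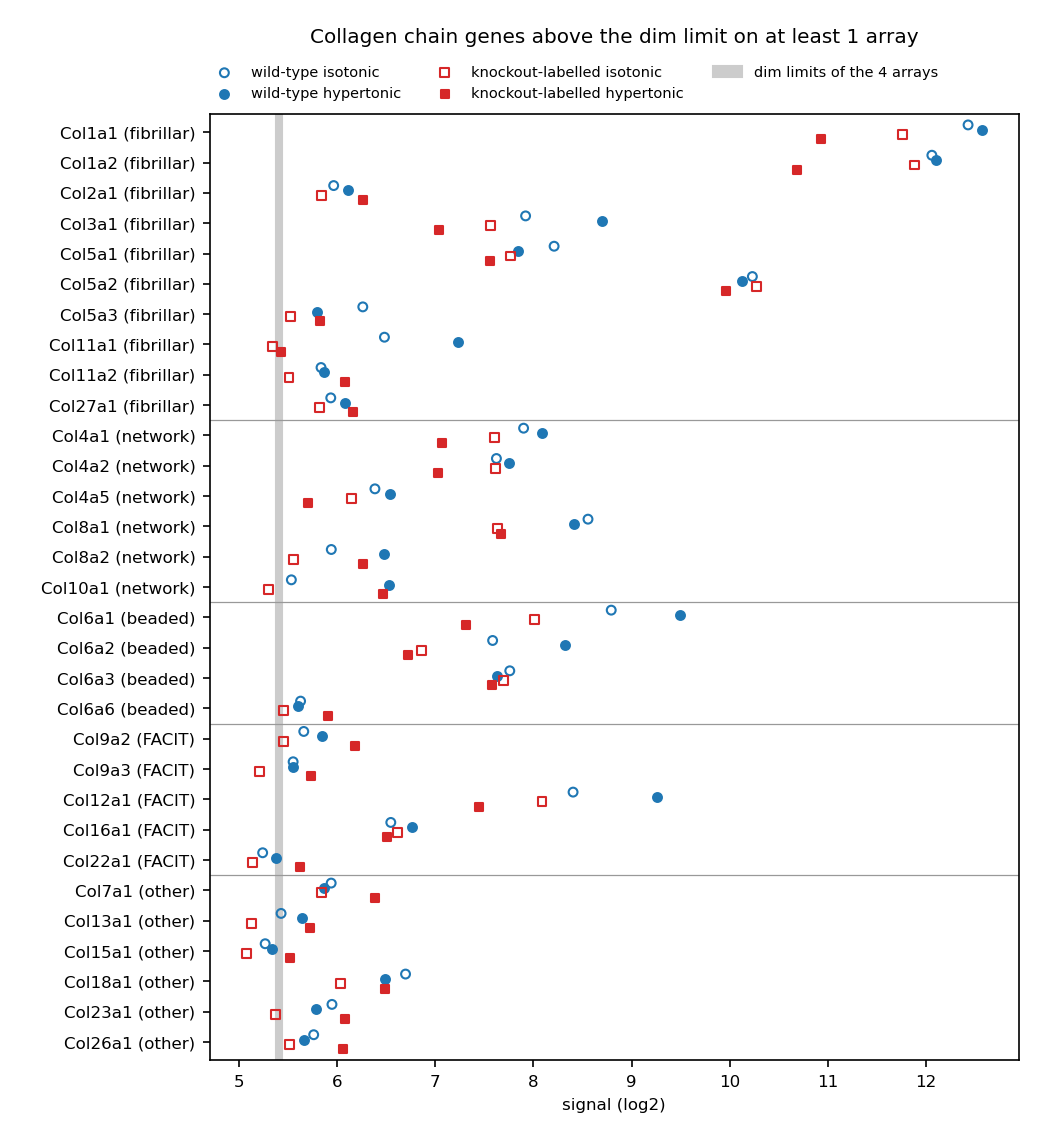
Log2 signal (horizontal axis) of the 31 collagen chain genes above the dim limit on at least 1 array, grouped by class, with 1 point per array and the dim limits as a grey band. The knockout-labelled hypertonic array is the lowest of the 4 for 13 of the genes, Col1a1, Col1a2, Col3a1, Col6a1 and Col12a1 among them, and the highest for 12 fainter genes. Of these 12, 7 were above the dim limit on all 4 arrays.

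The widest separation of the collagen genes was between genotypes in hypertonic medium. There 8 of 31 measured genes were at least 2-fold lower in knockout-labelled than in wild-type cells and 0 were at least 2-fold higher, where 6.43% of 10374 measured genes were at least 2-fold lower and 2.57% higher. The 8 were Col6a1, Col11a1, Col12a1, Col3a1, Col1a1, Col6a2, Col1a2 and Col4a1. In isotonic medium 1 of 29 measured genes, Col11a1, was at least 2-fold lower and 0 were higher, beside 1.28% and 1.59% of 10191 genes. Yet 27 of the 29 were below 0 there, with a median of -0.30, where 45.2% of all measured genes were below 0 and their median was 0.03. Col9a3, Col10a1, Col11a1, Col13a1 and Col23a1 counted as measured there only through the wild-type array, which fixed a value below 0 for them. Of the 8 measured fibroblast markers, 2 (S100a4 and Thy1) were at least 2-fold lower in knockout-labelled cells in isotonic medium and 3 (S100a4, Pdgfra and Pdgfrb) in hypertonic medium, while Vim read 12.55, 12.57, 12.72 and 12.50 on the arrays in the order above. Above 0 were 3 of the 8 in isotonic medium, Prrx1 (0.44), Twist1 (0.24) and Vim (0.17). In hypertonic medium 2 were above 0, Fn1 (0.23) and Twist1 (0.15). The 3 measured smooth muscle markers were all at least 2-fold lower in knockout-labelled cells in both media: Acta2 differed by -1.50 in isotonic and -2.50 in hypertonic medium, Tagln by -2.08 and -2.30, and Cnn1, with both of its knockout-labelled signals under the dim limit, by -1.54 and -1.47.

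The response to hypertonic medium was smaller at the 2-fold limit. In wild-type cells 0 of 29 measured collagen genes passed 2-fold in either direction, beside 1.01% of 10134 genes higher and 0.414% lower; Col10a1 was nearest, at 0.99, and passed the limit after quantile normalization, cyclic loess normalization or centring. In knockout-labelled cells 1 of 31, Col10a1, was at least 2-fold higher and 1, Col1a2, at least 2-fold lower, beside 0.379% and 3.08% of 10277 genes. Col10a1 read below the dim limit on the knockout-labelled isotonic array and counted as measured in that response only through the hypertonic one. Over all genes that comparison counted 39 higher and 317 lower as deposited, 63 and 215 after quantile normalization and 66 and 233 after centring. The all-gene median was -0.09 as deposited and 0.01 after quantile normalization, and Col10a1 and Col1a2 passed 2-fold under each of these scalings.

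The difference of the responses (knockout-labelled minus wild-type) was at least 2-fold negative for 4 of 31 genes (Col12a1, Col6a1, Col3a1 and Col1a2) and at least 2-fold positive for 0, beside 5.53% and 1.41% of 10542 genes. These counts use the same 4 arrays as the ones above and are not further evidence. As a measure of reading error, probe sets for 1 gene were set against each other over all genes with 2 measured ones, and had an SD of 0.15 per probe set in the wild-type response and 0.19 in the knockout-labelled response. In the genotype differences it was 0.19 in isotonic and 0.21 in hypertonic medium, and in the difference of responses 0.23. This spread covers the reading of a gene within an array, not the variation between cultures.

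Type I collagen, the main fibril-forming collagen of skin, tendon and bone, is a trimer of Col1a1 and Col1a2 products. Col1a1 read 12.43 and 12.57 in isotonic and hypertonic wild-type cells, and 11.76 and 10.93 in isotonic and hypertonic knockout-labelled cells. Col1a2 read 12.06, 12.10, 11.88 and 10.68 in the same order. For both chains the wild-type arrays lay close together and the knockout-labelled hypertonic array lay lowest. The hypertonic differences from isotonic medium were 0.14 and 0.04 in wild-type cells and -0.84 and -1.20 in knockout-labelled cells, so Col1a2 was 2.29-fold lower in the latter. Between genotypes in hypertonic medium Col1a1 differed by -1.64 (3.12-fold) and Col1a2 by -1.41 (2.67-fold). The chains stood apart in isotonic medium, where Col1a1 differed by -0.66 and Col1a2 by -0.18, a gap of 0.49.

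Col3a1 encodes the chain of type III collagen, a homotrimer that forms thin fibrils with type I collagen. In that order it read 7.92, 8.70, 7.56 and 7.03. Unlike the type I chains, whose wild-type values hardly differed, it was higher in hypertonic medium in wild-type cells (0.78, 1.72-fold), and it was lower in knockout-labelled cells (-0.53, 1.44-fold). The genotype difference was -0.36 in isotonic and -1.67 (3.17-fold) in hypertonic medium.

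Type V collagen regulates the diameter of type I fibrils, and its chains did not take part in the pattern of Col1a1, Col1a2 and Col3a1 to the same extent. Col5a1 read 8.21, 7.84, 7.77 and 7.56 and Col5a2 read 10.23, 10.12, 10.27 and 9.96, in the order wild-type isotonic, wild-type hypertonic, knockout-labelled isotonic and knockout-labelled hypertonic, which is used from here on. Col5a3, a chain of a minor form of type V collagen, read 6.26, 5.80, 5.53 and 5.82. Their differences in hypertonic medium between genotypes were -0.28, -0.16 and 0.03. In wild-type cells the chains were lower in hypertonic medium by differences of -0.37, -0.11 and -0.46. In isotonic medium Col5a3 was 1.66-fold lower in knockout-labelled cells (-0.73), while Col5a2 differed by 0.04, or by -0.01 after quantile or loess normalization.

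Col11a1, a chain of the type XI collagen that seeds thin fibrils in cartilage and other tissues, read 6.48, 7.23, 5.34 and 5.42. It was the 1 collagen gene at least 2-fold lower in knockout-labelled cells in both media, by -1.14 (2.20-fold) in isotonic and -1.81 (3.49-fold) in hypertonic medium. The knockout-labelled isotonic signal lay below the dim limit and the hypertonic one just above it, so the sizes of both differences are poorly determined. In wild-type cells the hypertonic signal was higher by 0.75. Of the other fibrillar chains, Col2a1, the main collagen of cartilage, read 5.96, 6.11, 5.84 and 6.27, Col11a2 read 5.84, 5.86, 5.51 and 6.08, and Col27a1 read 5.93, 6.08, 5.82 and 6.17. The signals of these 3 genes lay between 5.51 and 6.27 and spanned at most 0.57 over the arrays. Of 9 chondrocyte markers, Sox9 read above the dim limit on all 4 arrays (5.92, 6.71, 6.03 and 6.56) and the other 8, Acan and Comp included, read below it on all 4.

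Over the 10 measured fibrillar genes the median difference was 0.09 in the wild-type response, -0.06 in the knockout-labelled response, -0.34 between genotypes in isotonic medium and -0.22 in hypertonic medium, where 4 were at least 2-fold lower. The knockout-labelled median was 0.015 after quantile normalization and 0.025 after centring, so its direction is not settled. The class was thus split between chains with differences from -1.81 to -1.41 in hypertonic medium (Col1a1, Col1a2, Col3a1 and Col11a1) and chains whose differences there lay between -0.28 and 0.22.

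Among the network chains, Col4a1 and Col4a2 encode the common type IV collagen of basement membranes, 2 Col4a1 chains winding with 1 Col4a2 chain. Col4a1 read 7.90, 8.09, 7.61 and 7.07, and Col4a2 read 7.62, 7.75, 7.61 and 7.03. Within a genotype the chains had like responses to medium: their wild-type responses were 0.19 and 0.13, their knockout-labelled responses -0.54 and -0.58, and the differences of the responses -0.73 and -0.72. Between genotypes they stood further apart, with -0.29 for Col4a1 and -0.01 for Col4a2 in isotonic medium and -1.02 and -0.73 in hypertonic medium, gaps of 0.28 and 0.30. After quantile normalization Col4a1 no longer passed 2-fold. In RefSeq, build GRCm38.p6, the genes lie head to head on chromosome 8 on opposite strands, and their annotated starts overlap by 22 bases. Col4a5, whose product enters other type IV trimers, read 6.38, 6.54, 6.15 and 5.70 and had the same signs as Col4a1 in every comparison, with -0.84 between genotypes in hypertonic medium. Its usual partners Col4a3, Col4a4 and Col4a6 read below the dim limit on all 4 arrays.

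Type VIII collagen, a short-chain network collagen of vessel walls and the cornea, has the chains Col8a1 and Col8a2. Col8a1 read 8.56, 8.41, 7.63 and 7.67: both knockout-labelled arrays were lower than both wild-type arrays, by -0.92 (1.90-fold) in isotonic and -0.75 (1.68-fold) in hypertonic medium, and medium made little difference. Col8a2 read 5.94, 6.47, 5.56 and 6.27, with the reverse arrangement: both hypertonic arrays were higher than both isotonic arrays, by 0.53 in wild-type and 0.71 in knockout-labelled cells. Col10a1, the collagen of hypertrophic cartilage, followed medium in the same way. It read 5.53, 6.53, 5.30 and 6.47, a hypertonic difference of 0.99 (1.99-fold) in wild-type cells and 1.17 (2.25-fold) in knockout-labelled cells, and its isotonic signal lay just above the dim limit in wild-type and below it in knockout-labelled cells. In the knockout-labelled response it ranked 17 from the highest among 10277 measured genes, and in the wild-type response 104 among 10134. With isotonic signals this close to or below the limit, the sizes of both differences and these ranks are poorly determined. The 6 measured network genes had a median of -0.27 between genotypes in isotonic and -0.74 in hypertonic medium, and all 6 were below 0 in both, except that Col10a1 in hypertonic medium turned from -0.06 to 0.05 after quantile normalization. Among all measured genes 45.2% were below 0 in isotonic and 50.5% in hypertonic medium. In isotonic medium Col10a1 counted as measured only through the wild-type array, which fixed its sign there.

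Type VI collagen forms beaded microfibrils around cells from 1 Col6a1, 1 Col6a2 and 1 chain of the Col6a3 kind. Col6a1 read 8.79, 9.49, 8.01 and 7.31, Col6a2 read 7.58, 8.32, 6.86 and 6.72, and Col6a3 read 7.76, 7.63, 7.69 and 7.58. The first 2 chains differed between arrays while Col6a3 stayed within 0.18. Col6a1 had the largest genotype difference of any collagen gene measured, -2.18 (4.54-fold) in hypertonic medium, after -0.78 in isotonic medium; 0.84% of the genes measured had a lower difference in hypertonic medium. Col6a2 differed by -0.73 in isotonic and -1.61 (3.04-fold) in hypertonic medium, and Col6a3 by -0.07 and -0.05. In wild-type cells Col6a1 and Col6a2 were higher in hypertonic medium by 0.70 and 0.74. In knockout-labelled cells Col6a1 was lower by -0.70, and Col6a2 differed by -0.14, or by 0.02 after quantile normalization. Col6a1 and Col6a2 lie on chromosome 10 and Col6a3 on chromosome 1. Of the more recently described chains of the Col6a3 kind, Col6a6 read 5.63, 5.60, 5.45 and 5.90 on its brighter probe set and below the dim limit on the other, and Col6a4 and Col6a5 read below the limit on all arrays.

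Among the FACIT chains Col12a1, which bridges fibrils and other matrix proteins in load-bearing tissue, read 8.40, 9.26, 8.09 and 7.44. It had the largest difference of responses of the collagen genes, -1.49: hypertonic medium went with a difference of 0.85 (1.80-fold) in wild-type and of -0.64 (1.56-fold) in knockout-labelled cells. Between genotypes it differed by -0.32 in isotonic and -1.81 (3.51-fold) in hypertonic medium. Col16a1, found in small fibrils and microfibrils, read 6.55, 6.76, 6.61 and 6.51, with differences between -0.25 and 0.22 in the 4 comparisons between arrays. Col9a2 and Col9a3, chains of the type IX collagen of cartilage, read 5.66, 5.84, 5.45 and 6.18, and 5.55, 5.55, 5.21 and 5.73, and Col22a1 read 5.24, 5.38, 5.14 and 5.62. These last 3 genes were higher on the knockout-labelled hypertonic than on the knockout-labelled isotonic array by 0.73, 0.52 and 0.49. On the latter array Col9a3 and Col22a1 read below the dim limit. Col9a1, the third chain of type IX, read below the dim limit on all arrays.

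The remaining measured chains belong to none of these classes. Col18a1, a basement membrane collagen whose end fragment is endostatin, read 6.70, 6.49, 6.03 and 6.48. Col7a1, the anchoring fibril collagen of skin, read 5.94, 5.86, 5.84 and 6.39. The membrane collagens Col13a1 and Col23a1 read 5.43, 5.64, 5.13 and 5.72, and 5.95, 5.79, 5.37 and 6.08. Col15a1, related to Col18a1, read 5.27, 5.34, 5.08 and 5.52, and Col26a1 read 5.76, 5.67, 5.51 and 6.06. All 6 were higher in hypertonic medium in knockout-labelled cells, by 0.44 to 0.71, where 39.9% of 10277 measured genes were above 0. Among all genes with a mean signal of 5 to 6, the range of Col13a1, Col15a1, Col23a1 and Col26a1, 57.6% were above 0. At 6 to 7, the range of Col7a1 and Col18a1, it was 37.8%. Col13a1, Col15a1 and Col23a1 read below the dim limit on the knockout-labelled isotonic array. They count as measured in that response only through the hypertonic array, which fixed a value above 0 for them. None of the 6 passed 2-fold in any comparison between arrays. The largest gap between genotypes among them was that of Col18a1 in isotonic medium (-0.66, 1.58-fold), which was 0.00 in hypertonic medium.

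**Figure D2:**
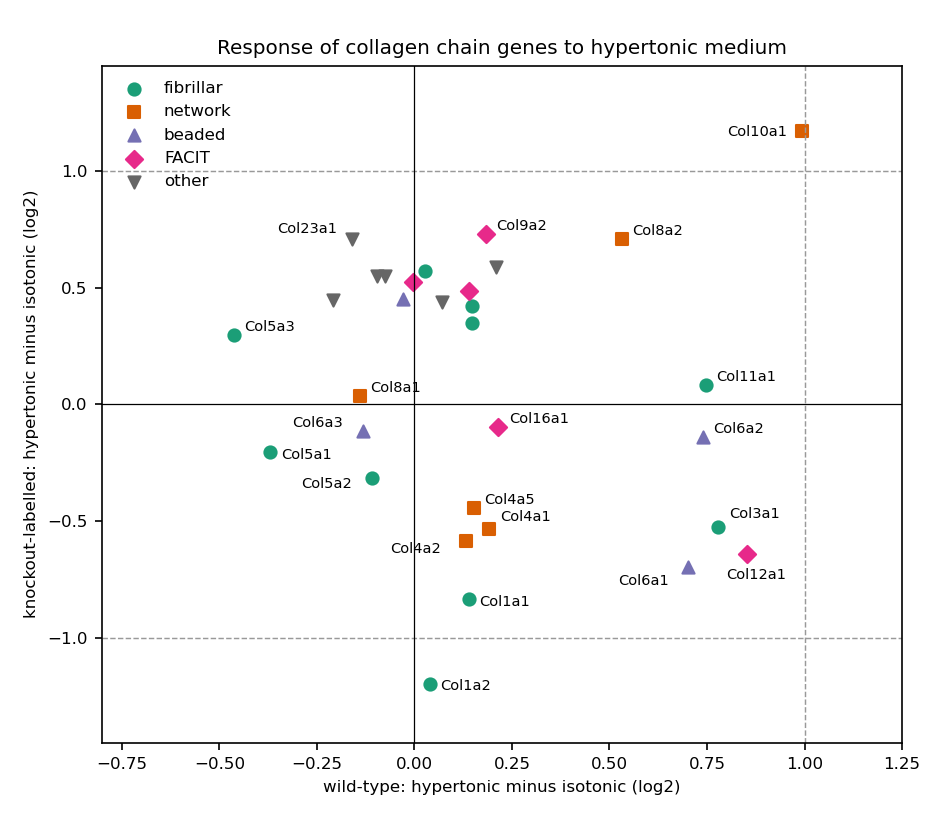
Hypertonic minus isotonic log2 difference in wild-type cells (horizontal axis) and in knockout-labelled cells (vertical axis) for 31 collagen chain genes, 1 point per gene by class, with dashed lines at 2-fold; Col15a1 and Col22a1 were below the dim limit on both wild-type arrays. The axes share no array; 10 genes lie above 0 in wild-type and below 0 in knockout-labelled cells (lower right), and Col10a1 lies at 0.99 and 1.17 (upper right).

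Set side by side over the 31 genes, 10 were above 0 in the wild-type and below 0 in the knockout-labelled response, 10 were above 0 in both, 3 were below 0 in both and 8 were below 0 and then above 0. Among the 10542 genes above the dim limit on at least 1 array the corresponding shares were 27.3%, 18.9%, 32.6% and 21.0%. Over the 24 collagen genes above the limit on all 4 arrays the counts were 10, 5, 3 and 6. The other 7 read below the limit on the knockout-labelled isotonic array and above it on the hypertonic one. A knockout-labelled response above 0 was thus fixed for them. The 10 genes of the first kind were Col1a1, Col1a2, Col3a1, Col4a1, Col4a2, Col4a5, Col6a1, Col6a2, Col12a1 and Col16a1, of which Col6a2 and Col16a1 turned positive in the knockout-labelled response after quantile normalization (0.02 and 0.06). Of the 8 genes of the last kind, Col9a3 lay at -0.003 in the wild-type response and above 0 after quantile normalization, loess normalization or centring. The 3 below 0 in both were Col5a1, Col5a2 and Col6a3.

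The sign of the knockout-labelled response differed between the brightest and the fainter collagen genes. Of the 12 collagen genes with a mean signal of at least 7 over the 4 arrays, 11 were below 0 in that response, with a median of -0.53, and the other was Col8a1 (0.04). All 13 collagen genes with a mean between 5 and 6 were above 0, with a median of 0.52. Of these, Col9a1, Col9a3, Col10a1, Col13a1, Col15a1, Col22a1 and Col23a1 read below the dim limit on the knockout-labelled isotonic array. Among all genes the medians in these ranges were -0.10 (6506 genes, 36.9% of them above 0) and 0.10 (2003 genes, 57.6% above 0). Of the 7 collagen genes with a mean between 6 and 7, 5 were above 0 and the median was 0.42. Of the 2301 genes in that range 37.8% were above 0, and their median was -0.13. The 13 collagen genes below the dim limit on all arrays, whose signals mix background with expression, had a median of 0.26, and 12 of them were above 0. Col9a1 belongs to both groups of 13. Over the 9128 genes with a mean below 5 the median was 0.13 and 69.7% were above 0. The part of a shift in the array's low signals was not tested. In the wild-type response the bright and the 5-to-6 collagen genes had medians of 0.14 and 0.07, beside -0.04 and 0.02 for all genes.

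**Figure D3:**
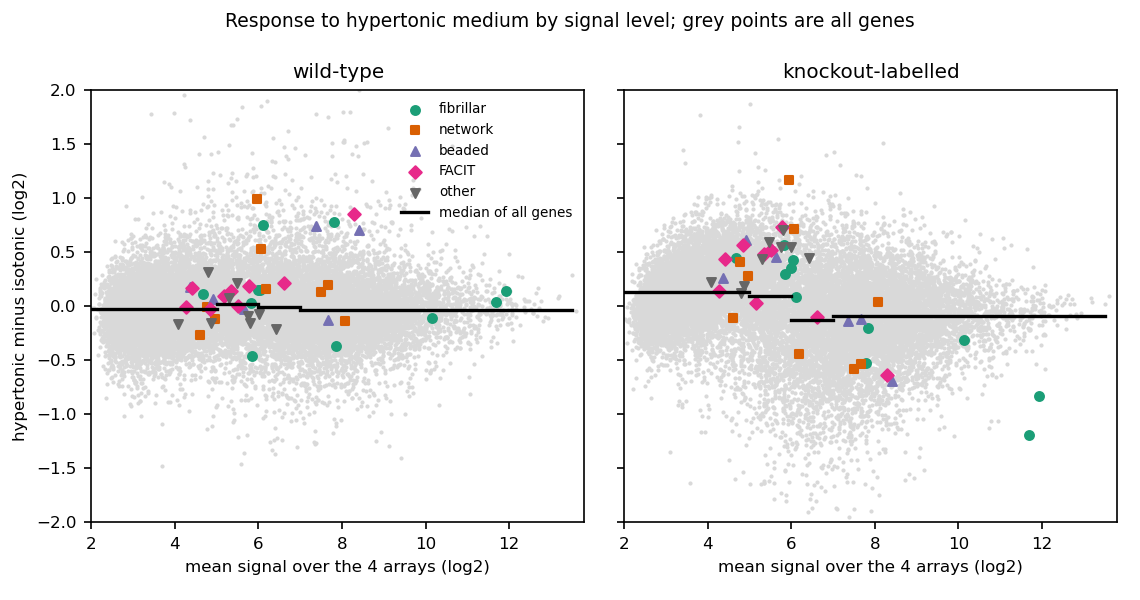
Hypertonic minus isotonic log2 difference (vertical axis) against mean log2 signal over the 4 arrays (horizontal axis) in wild-type and knockout-labelled cells, with collagen chain genes coloured by class, all genes in grey and the median of all genes in 4 signal ranges as black lines; genes outside the axes are not drawn. In knockout-labelled cells the collagen genes lie above 0 at a mean signal of 5 to 6 and mostly below 0 from 7 upward, and the medians of all genes go from 0.10 to -0.10.

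In the hypertonic genotype difference the 12 collagen genes with a mean of at least 7 were all below 0, from -2.18 to -0.05, with a median of -1.22, where the median of the 6506 genes in that range was 0.00. In isotonic medium 11 of the 12 were below 0, with a median of -0.34 beside 0.04 for all genes there, of which 57.1% were above 0. Of the 13 with a mean between 5 and 6, all were below 0 in isotonic medium (median -0.23) and 11 were above 0 in hypertonic medium (median 0.18). Several of these, named above, read below the dim limit on the knockout-labelled isotonic array. For all genes in that range the medians were -0.06 and 0.04, with 43.0% above 0 in isotonic and 53.5% in hypertonic medium.

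**Figure D4:**
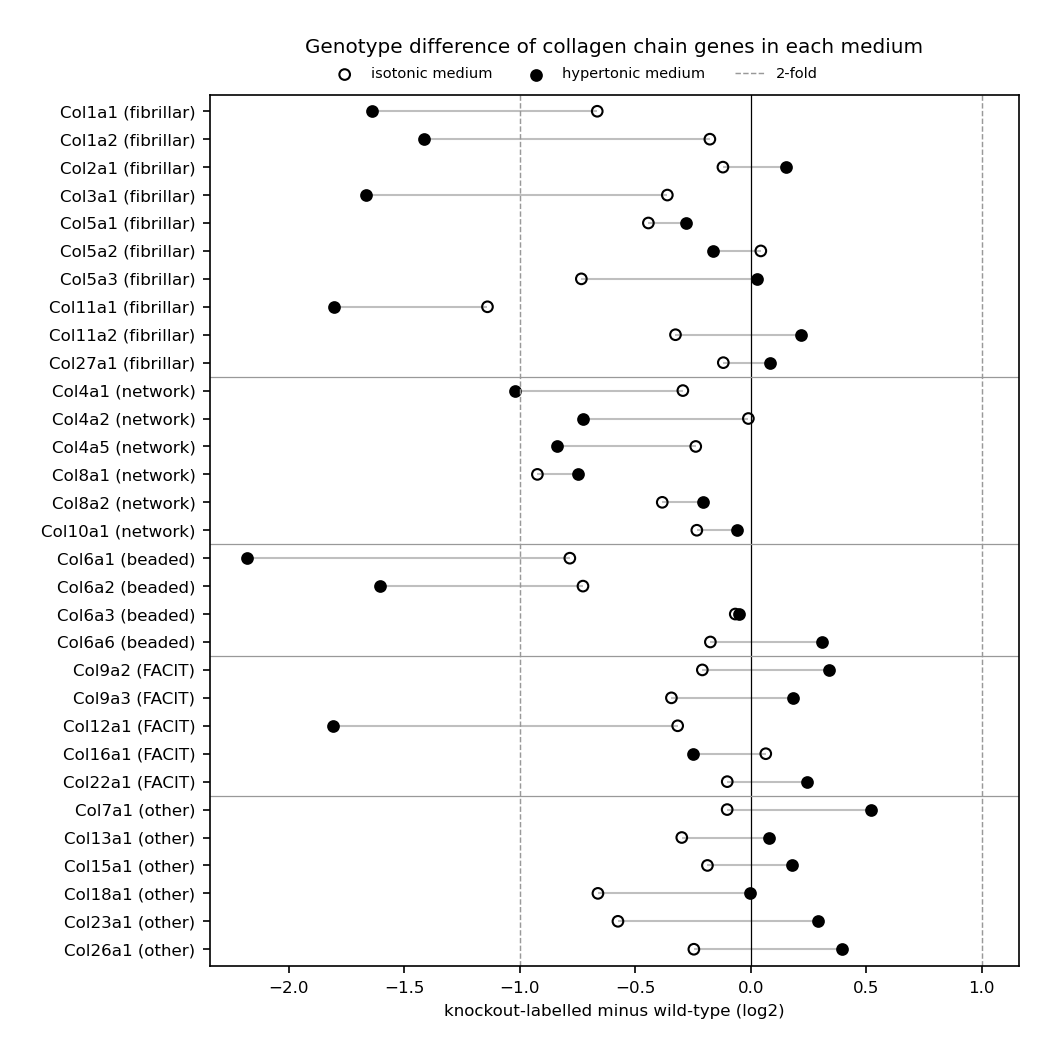
Knockout-labelled minus wild-type log2 difference (horizontal axis) in isotonic medium (open) and hypertonic medium (filled) for 31 collagen chain genes by class, with dashed lines at 2-fold; Col15a1 and Col22a1 were below the dim limit on both isotonic arrays. The filled points of Col1a1, Col1a2, Col3a1, Col11a1, Col4a1, Col6a1, Col6a2 and Col12a1 lie beyond -1, and Col11a1 is the 1 open point that does.

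Of the 8 genes at least 2-fold lower between genotypes in hypertonic medium, the stretch before the annotated start is shown for 4, so that members that differed together can be compared by sequence. Col1a1 and Col12a1 had no entry, and the stretches of Col4a1 and Col11a1 lie in an annotated gene. The sequences are from RefSeq, build GRCm38.p6, 130 bases up to the base before the start, on the gene's strand from 5′ to 3′, with motif matches in capitals. For Col6a2, which has 2 annotated starts, the outer one is shown.
Col1a2, chr6:4505488-4505617, + strand: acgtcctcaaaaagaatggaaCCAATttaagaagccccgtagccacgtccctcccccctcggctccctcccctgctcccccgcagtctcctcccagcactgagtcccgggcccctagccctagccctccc
Col3a1, chr1:45311408-45311537, + strand: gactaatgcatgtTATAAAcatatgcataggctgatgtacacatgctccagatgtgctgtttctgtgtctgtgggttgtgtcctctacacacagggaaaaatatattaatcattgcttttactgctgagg
Col6a1, chr10:76726045-76726174, - strand: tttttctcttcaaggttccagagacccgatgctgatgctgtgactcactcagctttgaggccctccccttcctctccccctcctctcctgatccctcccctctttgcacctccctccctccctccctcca
Col6a2, chr10:76623631-76623760, - strand: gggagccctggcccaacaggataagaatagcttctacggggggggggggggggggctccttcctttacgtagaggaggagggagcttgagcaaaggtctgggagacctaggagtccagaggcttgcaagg

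The motifs searched, on both strands of the 250 bases before each start, were TGGAAA, which is the core of the element that NFAT5 binds, that whole element under its name TonE, CCAAT and TATAAA; a TonE match always overlaps TGGAAA. Of the 44 genes 35 had an entry, with 38 starts, and Col1a1, Col2a1, Col5a2, Col9a3, Col12a1, Col14a1, Col22a1, Col26a1 and Col4a3 did not. TGGAAA lay before 4 of the 38 starts (Col4a6, Col6a2, Col6a4 and Col8a2), or 10.5%, beside 18.6% of all 32851 starts, and the match of Col6a2 is at its inner start. TonE lay before 1, that of Col4a6, beside 4.31%. CCAAT lay before 13 (34.2%, beside 33.8%), Col1a2, Col4a1, Col4a2 and Col11a1 among them, and TATAAA before 5 (13.2%, beside 12.4%), Col3a1 and Col10a1 among them. A match describes the letters in the window and is no evidence of binding.

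Genes that make, process and bind collagen were set beside the chains, from lists of 19 modifying enzymes and chaperones, 9 secretion genes, 8 propeptide processing genes, 5 cross-linking enzymes and 10 receptors, of which 47 genes had a one-gene probe set. In the wild-type response 0 of 38 measured passed 2-fold, beside the 1.01% higher and 0.414% lower of all genes, at which shares few or none of 38 would pass. The median was 0.11, beside -0.02 for all genes. The largest differences were those of Itga11, a collagen-binding integrin (0.89, poorly determined since its isotonic signal of 5.35 lay below the dim limit), P3h2, a prolyl 3-hydroxylase (0.78), P3h4, a partner of collagen lysyl hydroxylation (0.67), and Pcolce2, an enhancer of procollagen trimming (0.52).

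In the knockout-labelled response 5 of 36 were at least 2-fold lower and 1 was higher, beside the 3.08% and 0.379% of all genes, and the median was -0.43 beside -0.09 for all measured genes. Lox, the lysyl oxidase that starts collagen cross-links, read 9.71, 9.21, 9.24 and 7.65, a knockout-labelled response of -1.59. Crtap, a subunit of the prolyl 3-hydroxylase complex, read 8.85, 8.87, 8.72 and 7.54 (-1.18), and Plod2, which hydroxylates lysines used for cross-links, read 8.28, 8.71, 8.45 and 7.31 (-1.14). For these 3 genes the knockout-labelled hypertonic array was the lowest of the 4, well apart from the others. P4ha1, a catalytic subunit of prolyl 4-hydroxylase, read 9.63, 9.46, 10.32 and 9.20 (-1.12), and there the knockout-labelled isotonic array was the highest. Creb3l2, a transcription factor for secretory pathway genes, read 6.53, 6.81, 6.25 and 5.14 (-1.12), the last below the dim limit. Pcolce2 went the other way, at 6.98, 7.50, 7.24 and 8.45 (1.21).

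**Figure D5:**
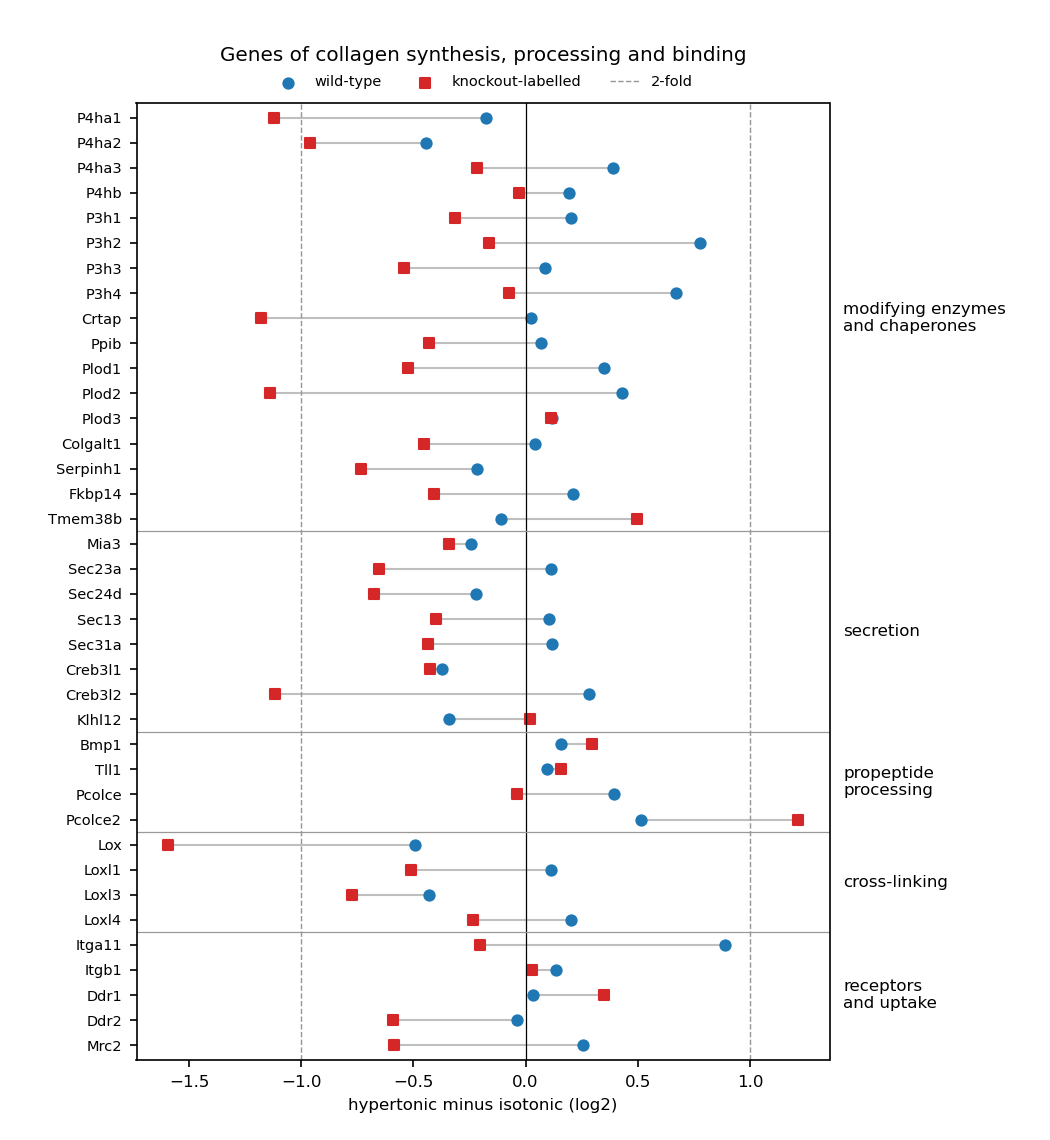
Hypertonic minus isotonic log2 difference (horizontal axis) in wild-type (circles) and knockout-labelled cells (squares) for the 38 genes of collagen synthesis, processing and binding above the dim limit on at least 1 array, by role, with dashed lines at 2-fold; P4ha3 and Itga11 were below the limit on both knockout-labelled arrays. Lox, Crtap, Plod2, P4ha1 and Creb3l2 have squares beyond -1, Pcolce2 has one beyond 1, and no circle passes a dashed line.

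By role, 14 of 16 measured modifying enzymes and chaperones were below 0 in the knockout-labelled response (median -0.44), as were 7 of 8 secretion genes (-0.43) and the 4 cross-linking enzymes (-0.64), while 3 of 4 propeptide processing genes were above 0 (0.23). Receptors and uptake genes were divided, with Ddr1 at 0.35 and Itgb1 at 0.03, and Ddr2 and Mrc2 both at -0.59. Serpinh1, the collagen chaperone HSP47, read 8.47, 8.26, 8.40 and 7.67, and P4hb, the other prolyl 4-hydroxylase subunit, read 11.59, 11.78, 11.35 and 11.32. Among all genes measured in that comparison 60.1% were below 0.

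Between genotypes in hypertonic medium 10 of 38 of these genes were at least 2-fold lower and 0 were higher, beside the 6.43% and 2.57% of all genes: Itga11 (-1.87), Creb3l2 (-1.68), Lox (-1.57), Mrc2, a receptor for collagen uptake (-1.57), P3h2 (-1.41), Plod2 (-1.40), Loxl1 (-1.37), Crtap (-1.34), P4ha3 (-1.14) and P3h4 (-1.07). Of these, Itga11, Creb3l2 and P4ha3 read below the dim limit on the knockout-labelled hypertonic array. In isotonic medium 0 of 37 passed 2-fold, and the largest differences were those of Creb3l1, a transcription factor for collagen secretion genes (-0.89), Loxl1 (-0.74), Mrc2 (-0.72) and P4ha1 (0.69). The difference of responses was at least 2-fold negative for 5 of 38, Plod2 (-1.57), Creb3l2 (-1.40), Lox (-1.10), Itga11 (-1.09) and Crtap, and at least 2-fold positive for 0, beside the 5.53% and 1.41% of all genes.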

How the data were processed

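Pools of 4 samples per condition were hybridised to 1 array each. The deposited table holds 1 log2 signal per probe set and array, made by the authors; the log2 scale was read from the values. MAS5 is named, without version or role, per the submitters' processing notes. The authors' background correction and normalization were not given in the sources used here. Values were used as deposited. Of 35557 probe sets, 21789 had 1 gene symbol in the platform annotation, 1621 several and 12147 none, and the first kind was used. All 44 collagen symbols matched RefSeq by Entrez identifier.

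Differences, counts at 2-fold and medians were computed over all genes above the dim limit and then read for the collagen genes. The number of arrays, 1 per group, limits the precision, and no p-value was computed. The counting step was tested on simulated data. The collagen genes are all those of the symbol rule; classes are textbook groupings. All measured collagen genes are named, and of the synthesis lists the genes past 2-fold and the 4 largest differences. Serpinh1 and P4hb are named for their roles, after their values were seen. Ddr1, Ddr2 and Itgb1 are likewise named to complete the receptors measured in the knockout-labelled response. The members and lists were chosen with earlier results of these data known.

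Alternatives were quantile and cyclic loess normalization, centring, no dim limit, the 75th percentile as dim limit, a limit of 1.5-fold, and averaging over the probe sets of each gene. Python 3.11.15, pandas 2.3.3, numpy 2.4.6, matplotlib 3.10.9, R 4.3.3 and limma 3.58.1 were used.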

Additional observations from a re-analysis of the deposited data

Results flagged for a closer look

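For 9 collagen genes the hypertonic response had opposite signs in wild-type and knockout-labelled cells, and either both responses exceeded the spread between probe sets or they differed at least 2-fold. With 1 array per group the difference was not tested for any of them. The difference of the responses, knockout-labelled minus wild-type, was -1.49 for Col12a1, -1.40 for Col6a1, -1.30 for Col3a1, -1.24 for Col1a2, -0.73 for Col4a1 and -0.60 for Col4a5. In these 6 genes the wild-type value was above 0 and the knockout-labelled value below 0, though the wild-type value of Col1a2 was only 0.04. The other 3 went the opposite way, with 0.87 for Col23a1, 0.76 for Col5a3 and 0.66 for Col18a1.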

How the results depend on the processing

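Each value rests on 1 pool per condition, and dim signals limit what can be read of the fainter chains. No collagen gene past 2-fold changed sign under another scaling. The count higher in the wild-type response went from 0 to 1 after quantile normalization, loess normalization or centring, and to 6 at 1.5-fold. At 1.5-fold the knockout-labelled response counted 5 higher and 4 lower, the isotonic genotype difference 7 lower, and the difference of responses 5 positive and 10 negative. With the dim limit at the 75th percentile, which keeps 8 to 12 collagen genes, the counts of 1 higher in the knockout-labelled response and 1 lower in the isotonic genotype difference became 0. The medians became -0.48 in the knockout-labelled response (0.30 as deposited) and -1.22 in the hypertonic genotype difference (-0.06). In the difference of responses the median became -0.80 (0.18 as deposited). These medians cover only the brighter genes kept by the higher limit. With no dim limit, which adds genes at background, the beaded median was 0.12 in the wild-type response, 0.073 in the knockout-labelled response, -0.13 and -0.018 in the isotonic and hypertonic genotype differences and 0.051 in the difference of responses. The network median was then 0.036, -0.26 and 0.18 in the knockout-labelled response, the hypertonic genotype difference and the difference of responses, and that of the remaining chains was 0.38 in the last. The fibrillar median of the knockout-labelled response, -0.06 as deposited, was 0.015 after quantile normalization, 0.025 after centring and 0.082 with no dim limit; the beaded one, -0.13, was 0.009 after quantile normalization. These and the other values of counts and medians, 177 in all, moved by less than the probe set spread or 1.5 times. No paired analysis was possible because each group has 1 array.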
